A study of Arabidopsis thaliana with 21 samples.

Results

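Seeds of Arabidopsis thaliana that had taken up water for 6 h held 225 transcripts well above their level at every other stage between the dry seed and the seedling with open cotyledons. The 225 loci were chosen from the deposited log2 values: probe sets of 1 locus were averaged, the 3 arrays of each stage were averaged, and a locus was kept when its mean at 6 h lay at least 1.1 log2 units above the highest mean of the other 6 stages. They made up 0.81% of 27789 measured loci, and 4727 loci in all had their highest mean at 6 h. The distance of the 6 h mean above the next highest stage mean is called the margin below. Because the margin chose the loci, every value of these 225 at 6 h is given as a description and carries no test. For them limma's values are given for changes between the other 6 stages, whose order the rule left free although each of them entered it. Limma's results for changes to or from 6 h are given only for loci that did not meet the rule. Those loci were set apart by the same margin, so such counts are not independent of it.

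A dry seed holds stored messenger RNA and little metabolic activity. When it takes up water, respiration, transcription and translation restart within hours, well before the radicle appears, and gibberellin is the hormone that promotes the completion of germination in this species. Small nucleolar RNAs (snoRNAs), which return below, are short stable RNAs that guide the chemical modification and trimming of ribosomal RNA in the nucleolus.

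All samples were of the cultivar Col-0, with no mutant or added agent. The 7 stages were the mature dry seed (DS), the seed after 6 h of imbibition (6H), rupture of the testa (TR), protrusion of the radicle (RP), root hairs (RH), greening cotyledons (GC) and open cotyledons (OC), each with 3 biological replicates from seed pooled over 3 to 4 plants. Seeds other than the dry ones lay in the cold for 72 h at 4 °C in dishes with water, after which they were kept at 22 °C under constant white light. Whether the 6 h count from the cold period or from the light is not stated in the sources used here. Per stage, 3000 individuals were selected by eye with a stereomicroscope, and 50 ng of total RNA was amplified and labelled with biotin for a 1-colour array. Whole seeds and seedlings were extracted, so fewer cells of a type and less RNA per cell cannot be told apart in any value that follows. The p-values measure the spread between these pools.

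The 21 arrays went with their labels. The median over 6 dry-seed transcripts was 11.51 at DS and 4.95 at OC, and the median over 6 seedling photosynthesis transcripts was 4.77 at DS and 11.10 at OC. Replicates of a stage correlated across genes at 0.981 or more. Of 11 endosperm and 9 seed coat transcripts, most lay near the lower end of the scale at all stages, with list medians between 3.0 and 3.7, so those lists give little measure of either tissue. With 3 arrays a stage, the number of arrays limits the precision.

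The margins ran from 1.1 to 3.14 with a median of 1.3. A margin of at least 1.5 was reached by 68 loci, of at least 2 by 24 and of at least 2.5 by 6. In 224 of the 225 loci all 3 arrays at 6H lay above all 18 others. A margin of at least 1.1 makes this likely wherever replicate arrays lie close together, so the count adds little to the rule. The share over all loci was not counted. The exception was PR1, a pathogenesis-related protein induced by salicylic acid, whose 6H arrays read 5.02, 4.30 and 3.62 while OC replicate 2 read 3.77. The median SD between the 6H arrays was 0.15. On either side of the threshold stood loci with near-equal values: the subtilase SLP2, AT5G57567 and AT1G48870 were just inside, with margins of 1.106, 1.105 and 1.103, and AT1G11800, AT2G35733 and the telomere-repeat-binding-like gene TRFL10 were just outside, with margins of 1.099, 1.098 and 1.096.

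**Figure D1:**
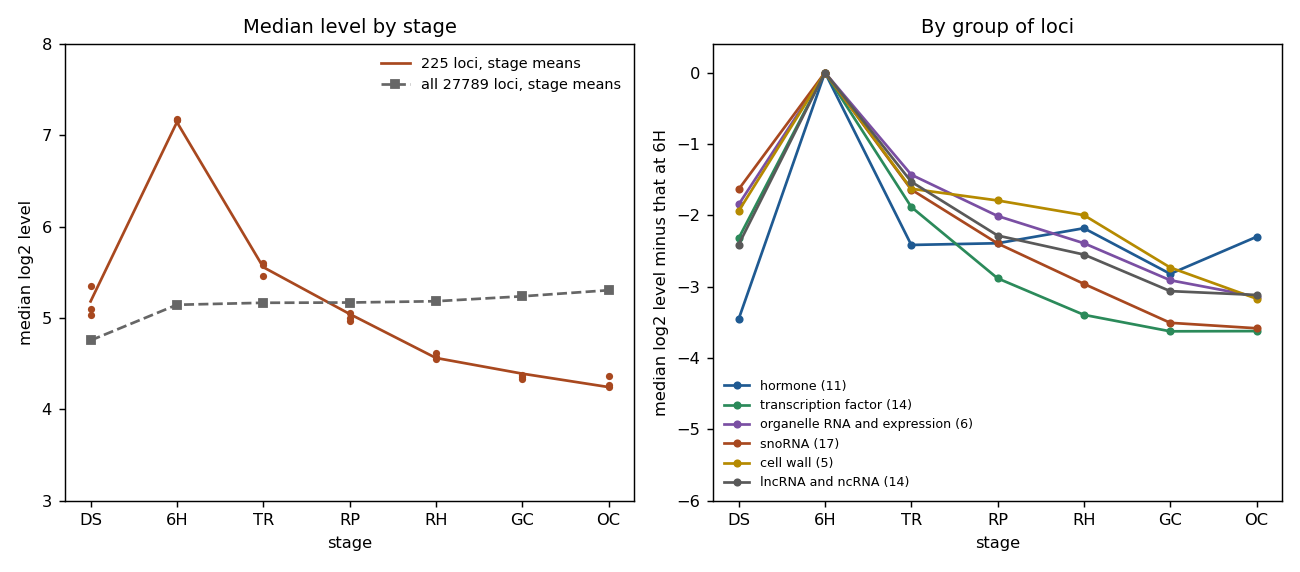
Left, median log2 level of the 225 loci on each array (points) and over the stage means (solid line), with the median over stage means of all 27789 loci (dashed line). The median of the 225 loci was 5.18 at DS, 7.14 at 6H and 5.56 at TR and reached 4.24 at OC. Right, the median log2 level of 6 groups of these loci minus the same group's median at 6H, with the number of loci in brackets; every group is at 0 at 6H by construction, and the hormone group alone among the 6 is higher at OC than at GC by more than 0.5.

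As a set the loci had a median level of 5.18 at DS, 7.14 at 6H and 5.56 at TR, and then read 5.05 at RP, 4.56 at RH, 4.39 at GC and 4.24 at OC. The same medians over all loci moved between 4.76 and 5.30. TR was the second highest stage for 137 loci (60.9%) and DS for 67 (29.8%), while OC held that place for 9, RH for 6, GC for 4 and RP for 2. Among the 4502 other loci highest at 6H, TR was second for 48.9% and DS for 38.5%. At TR, 136 of the 225 loci (60.4%) lay within 0.5 log2 units of their dry-seed mean, against 39.4% of all loci. Closeness of TR to DS, here and for single loci below, holds for the values as deposited. The median change of all loci from DS to TR was -0.21, and -0.08, -0.60 and -1.02 under 3 other scalings of the arrays. Signal was present outside 6H for most of them: 153 were above the level under which 30% of all locus means fall (3.47) at all 7 stages, and 8 were above it at 6H alone.

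The largest margin belonged to IAA33, a member of the Aux/IAA family of auxin-response repressors. It read 3.07, 3.65 and 3.12 in the 3 DS arrays, 7.12, 7.55 and 7.45 at 6H and 3.99, 4.29 and 4.11 at TR, and its later stage means lay between 3.83 and 4.24. The 6H arrays thus stood apart from all others, and the 5 later stages were close to each other. None of the other 28 measured Aux/IAA genes met the rule: 7 of them rose at least 2-fold from DS to 6H and 5 fell, where 14.6% of all loci rose and 10.7% fell under the same test (limma, Benjamini-Hochberg adjusted p under 0.05 and at least 2-fold). At an adjusted p alone 11 rose and 11 fell (background 29.6% and 40%). Counts of this step moved with the scaling of the arrays: the median change of all loci was -0.23, which became -0.04 when the values were quantile normalized once more, -0.60 with arrays centred on their median and -0.61 with arrays centred on reference genes. The Aux/IAA split of 7 to 5 turned to 4 to 7 under both centrings.

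MT1B, which encodes a small cysteine-rich metal-binding metallothionein, came next with a margin of 2.98. Its arrays read 4.47, 5.09 and 4.71 at DS, 9.89, 9.63 and 9.75 at 6H and 6.33, 6.58 and 6.36 at TR. It did not return to the dry-seed level: later stage means were 6.02 to 6.77, and OC was 2.02 ± 0.15 (SE) above DS (adjusted p = 2.17e-10). Other metallothioneins ran differently. MT1A read 8.97 at DS, 8.74 at 6H (adjusted p = 0.17) and 11.20 at TR in mean, and the seed metallothionein AtMT4a fell from 9.44 to 6.56 at 6H and to 3.20 at TR.

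Among the other large margins, ABCB15, an ABC transporter of the B subfamily, read 6.93, 6.84 and 6.75 at DS, 9.70, 9.59 and 9.79 at 6H and 7.03, 6.88 and 6.93 at TR. In the deposited values the level before and after the pulse was nearly the same, and the mean at RH was 3.96. BGAL16, a beta-galactosidase, a class of enzymes that trims galactose from cell wall polymers, read 3.72, 3.66 and 3.96 at DS, 6.61, 6.69 and 6.31 at 6H and 3.76, 3.96 and 3.80 at TR. Here too DS and TR overlapped, and all later means were between 3.07 and 3.26, under the 30% level. MAPKKK20, a kinase at the head of a MAP kinase cascade, read 5.78, 5.45 and 5.95 at DS, 8.03, 8.14 and 8.50 at 6H and 5.77, 5.85 and 5.73 at TR, with a mean of 3.45 at OC.

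**Figure D2:**
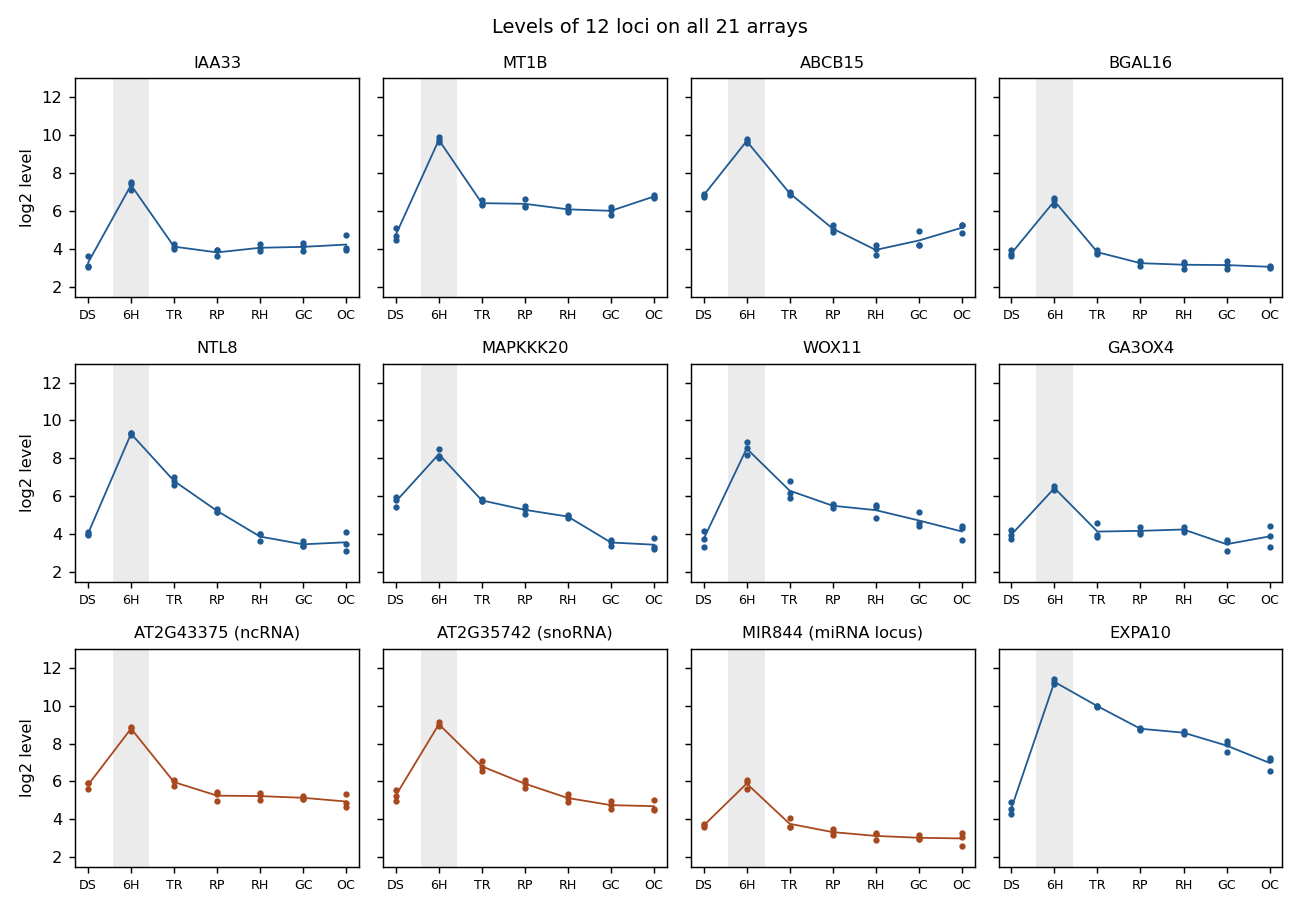
Log2 level of 12 of the 225 loci on all 21 arrays, by stage; points are arrays, lines join stage means, the grey band marks 6H, blue marks protein-coding loci and brown marks loci annotated as non-coding RNA. In each panel the 3 arrays at 6H are the highest, while the level after TR differs: EXPA10 stays above its dry-seed level and NTL8 falls back to it.

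The 25 largest margins also held loci with no gene name in the reference table. AT5G10120 was among them with 7.53, 7.42 and 7.52 at DS, 9.75, 9.87 and 9.71 at 6H and 5.69, 5.13 and 5.23 at TR, so that it was high in the dry seed, higher at 6H and low from then on (2.85 to 3.62 in mean). AT3G06640 (margin 2.45), AT3G53690 (2.13), AT3G44120 (2.13) and AT3G28899 (2.01) also had DS as their second highest stage. For AT3G58690 (2.19), AT5G57640 (2.08), AT1G26762 (2.04) and AT1G31240 (1.97) it was TR. SYN1, the meiotic cohesin subunit also called REC8, read 3.31, 3.39 and 3.23 at DS, 5.28, 5.47 and 5.22 at 6H and 2.98, 3.02 and 3.22 at TR. All 6 of its other stage means were under the 30% level.

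Non-coding RNA was common among these loci, and snoRNA, singled out after its values were seen, most of all. Of 68 snoRNA loci on the array 17 met the rule, which is 25% of the class against 0.81% of all loci, and 57 of the 68 (83.8%) were highest at 6H. The median over the class was 7.30 at DS, 8.94 at 6H, 7.72 at TR, 7.10 at RP, 6.83 at RH, 6.41 at GC and 6.18 at OC. Under the 3 other scalings 56 to 59 snoRNA loci were highest at 6H, beside 12.7% to 18.8% of all loci, and the number that met the rule moved between 13 and 28 as that of all loci moved between 145 and 323. Of the other classes, 5 of 174 miRNA loci, 8 of 165 loci annotated as ncRNA, 6 of 222 as lncRNA, 2 of 25 transcribed pseudogenes, none of 52 tRNA loci and 187 of 26429 protein-coding loci (0.708%) met it.

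The snoRNA with the largest margin was AT2G35742 (2.22). Its arrays read 5.55, 5.25 and 4.99 at DS, 9.16, 8.91 and 8.98 at 6H and 6.76, 7.08 and 6.55 at TR, and its mean was lower at each later stage, down to 4.70 at OC. AT4G03295 (2.16) read 6.86, 6.68 and 6.49 at DS, 8.92, 8.97 and 9.37 at 6H and 7.16, 6.90 and 6.72 at TR. The arrays of 6H did not overlap those of any other stage in either case. U60.1F (1.3), whose span lies inside that of FIB1, the gene for the rRNA methyltransferase fibrillarin, read 6.80, 6.58 and 6.32 at DS, 7.75, 7.70 and 8.13 at 6H and 6.35, 6.47 and 6.08 at TR. FIB1 itself had a margin of 0.40.

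Members of one snoRNA cluster are not independent, since such RNAs are often cut from a shared precursor, and probes within a cluster may read that precursor too. AT2G43137, AT2G43138 and AT2G43139 lie next to each other within the span of AT2G43110 and had margins of 1.75, 2.12 and 1.45, against 0.80 for AT2G43141 and 0.53 for AT2G43110. AT2G20721 and AT2G20723 met the rule with 1.56 and 1.35, and AT2G20722 missed it with 1.02. Neighbours could also differ: AT3G24614 had a margin of 1.26 and AT3G24612 had its highest mean in the dry seed, at 9.91 against 9.72 at 6H.

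Among the 51 snoRNA loci that did not meet the rule, 27 rose at least 2-fold from DS to 6H and 1 fell, where 14.6% and 10.7% of all loci did. From 6H to TR none rose 2-fold and 13 fell (background 9.8% and 7.34%). The 27 that rose became 21 under both centrings, and the 13 that fell became 9 after the further quantile normalization, 16 with median centring and 34 with reference centring. At an adjusted p alone 39 rose and 2 fell in the first step (background 29.6% and 40%), and none rose and 35 fell in the second (22.2% and 26.2%). The median changes of these 51 were 1.06 and -0.81. The 1 locus that fell 2-fold was U3D, a member of the U3 family that acts in the first cuts of the ribosomal RNA precursor, which read 6.11 at DS and 2.81 at 6H in mean. Between TR and OC, 15 of the 17 snoRNA loci that met the rule fell at least 2-fold and none rose, and 32 of the other 51 fell and 1 rose (median changes -1.96 and -1.39), where 15% of all loci fell and 15.7% rose. Both stages entered the rule, so the count of the 17 is a description. The counts of the 51 for the 2 steps that involve 6H are descriptions as well. The class was singled out after its values were seen, and the margin at 6H set the 51 apart. The shares of all loci keep the loci that met the rule, so they are not alike with counts of the 51.

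**Figure D3:**
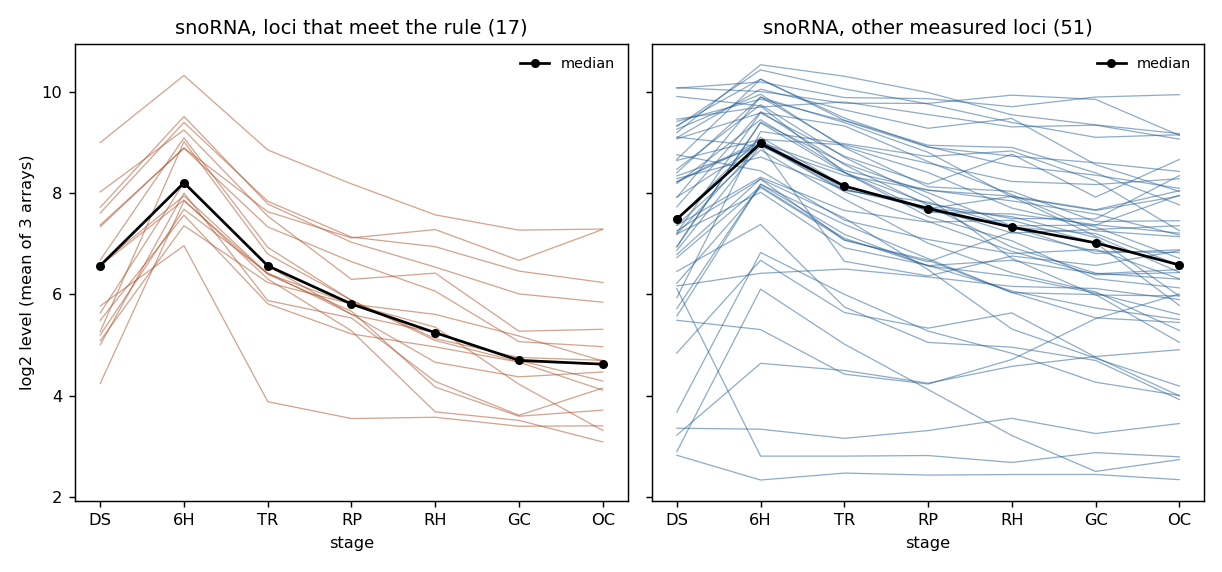
Mean log2 level of each of the 68 measured snoRNA loci by stage; thin lines are loci, the black line with points is the median, left for the 17 loci that met the rule and right for the other 51. Both medians peak at 6H and fall at each stage after it.

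A list of 11 protein genes of ribosome biogenesis and the ribosome held no locus that met the rule. From DS to 6H 10 of the 11 rose at an adjusted p under 0.05, 6 of them at least 2-fold, and TOR, the growth-regulating kinase, fell by 0.52 (29.6% of all loci rose at that threshold, and 14.6% rose 2-fold). From 6H to TR 7 fell and none rose at an adjusted p alone, where 26.2% of all loci fell and 22.2% rose. Only 1 of the 11 fell at least 2-fold in that step, near the 7.34% of all loci, and the median change was -0.39. Under the further quantile normalization, median centring and reference centring, 5 rose 2-fold in the first step, and 1, 1 and 4 fell 2-fold in the second. Of the 11, 9 were highest at 6H, as were 17% of all loci. FIB2, the second fibrillarin gene, rose by 2.11 and PUM24, a nucleolar RNA-binding protein, by 1.95. NUC-L2, 1 of the 2 nucleolins on the list, came closest to the rule with a margin of 1.05. The list's median change from TR to OC was -1.55.

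The miRNA loci read the precursor region, not the mature miRNA. MIR775 had the largest difference between DS and 6H among them, with 6.48, 6.17 and 6.26 at DS, 11.23, 11.22 and 11.31 at 6H and 10.02, 10.11 and 9.91 at TR. At OC its mean was 6.17, near that of the dry seed. MIR844 (margin 2.12) read 3.58, 3.74 and 3.71 at DS, 5.61, 5.97 and 6.09 at 6H and 3.62, 4.07 and 3.62 at TR. It overlaps AT2G23348, another of the 225 loci, so the 2 signals may not be independent. MIR779 (1.44), MIR403 (1.21) and MIR167b (1.11) were the other 3. Of the ncRNA loci, AT2G43375 had a margin of 2.82 and AT3G02832 of 2.53, and in both DS and TR differed by less than 0.7 in mean.

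The hormone group of 11 loci held 4 gibberellin genes. GA3OX1, which makes the bioactive hormone in the last step of its synthesis, read 2.84, 3.38 and 3.23 at DS, 8.32, 8.59 and 9.00 at 6H and 6.55, 6.69 and 6.74 at TR, and stayed between 6.64 and 7.13 in mean afterwards. GA3OX4, another enzyme of that step, read 4.23, 3.76 and 3.95 at DS, 6.39, 6.56 and 6.35 at 6H and 3.88, 4.60 and 3.95 at TR. GA20OX3, which acts 1 step earlier, read 6.45, 5.82 and 6.16 at DS, 7.32, 7.71 and 7.76 at 6H and 3.97, 4.30 and 3.97 at TR. The levels of the 3 synthesis genes after the peak differed: GA3OX1 kept a level above the dry seed, GA3OX4 returned to that level and GA20OX3 fell below it.

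GAI, a DELLA protein that represses gibberellin responses, also met the rule, with 7.23, 7.46 and 7.26 at DS, 8.86, 8.70 and 8.86 at 6H and 7.66, 7.52 and 7.45 at TR. Its relatives RGA1 (margin 0.90), RGL3 (0.88) and RGL2 (0.72) were also highest at 6H, and RGL1 was not, at 5.01 at 6H and 5.43 at TR. GA3OX2 rose from 3.44 at DS to 10.55 at 6H but was still at 10.38 at TR, for a margin of 0.18. Of the 24 other gibberellin genes on the list, 5 rose at least 2-fold from DS to 6H and 3 fell, where 14.6% and 10.7% of all loci did. The 24 leave out the 4 genes that met the rule, while the shares of all loci keep such loci, so the 2 are not alike. At an adjusted p alone 11 rose and 8 fell (background 29.6% and 40%), and under both centrings the 2-fold split was 5 to 5. The 3 that fell were the receptors GID1A (-2.34) and GID1C (-1.55) and the catabolic gene GA2OX6 (-1.06).

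**Figure D4:**
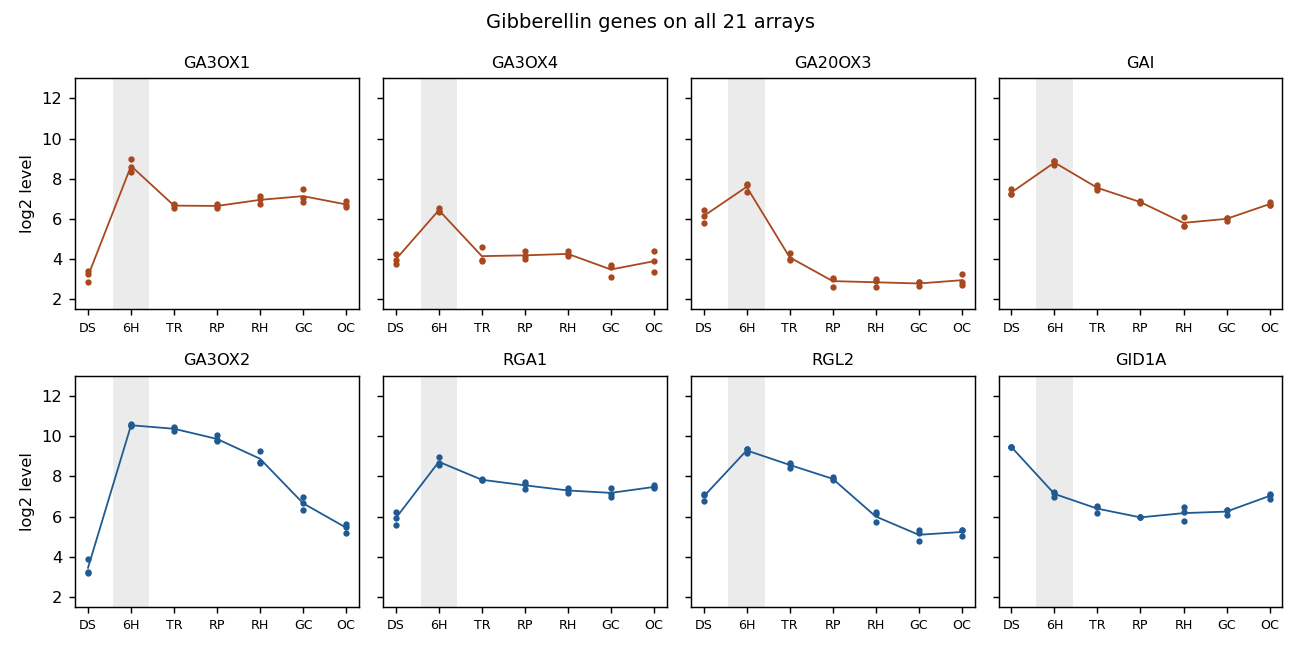
Log2 level of 8 gibberellin genes on all 21 arrays by stage, brown for the 4 that met the rule and blue for 4 that did not; points are arrays, lines join stage means and the grey band marks 6H. GA3OX2 stays near 10 until RP, and GID1A is highest in the dry seed.

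Other hormone genes among the 225 were CKX5 (margin 1.62), which degrades cytokinin, BR6OX2 (1.45), which acts late in brassinosteroid synthesis, DFL2 (1.55), of the GH3 family of hormone-conjugating enzymes, the auxin-inducible SAUR4 (AT4G34800, 1.15) and SAUR49 (AT4G34750, 1.11), and KUOX1 (2.09), an oxidoreductase named for its induction by karrikin. CKX5 read 4.29, 3.94 and 3.68 at DS, 7.22, 7.11 and 6.88 at 6H and 5.03, 4.91 and 5.12 at TR. KUOX1 read 3.43, 3.61 and 3.33 at DS, 5.08, 5.84 and 5.71 at 6H and 2.92, 3.42 and 3.62 at TR. CKX5 stayed above its dry-seed level and KUOX1 did not, at 2.67 at OC in mean. The lists for abscisic acid (23 genes), jasmonate (21), ethylene (16), cold response (15) and heat shock (11) held none of the 225 loci, and from DS to 6H they had 2, 0, 4, 1 and 0 genes that rose at least 2-fold and 8, 10, 1, 3 and 6 that fell, beside 14.6% and 10.7% of all loci. The ethylene split of 4 to 1 turned to 3 to 6 under both centrings and was 4 to 10 at an adjusted p alone. These lists do not hold every gene of their pathways, and the 225 loci may include others, among them loci without a gene name.

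Of 14 genes placed among the transcription factors and their cofactors, 10 fell at least 2-fold between TR and OC, beside 55.6% of the 225 loci and 15% of all loci. NTL8, a NAC factor held at a membrane until it is released, read 3.94, 4.12 and 4.04 at DS, 9.32, 9.35 and 9.23 at 6H and 6.80, 7.02 and 6.61 at TR. Its mean was 5.23 at RP, 3.88 at RH and 3.47 at GC. WOX11, a homeobox factor known for its part in starting new roots, read 3.31, 4.17 and 3.76 at DS, 8.17, 8.54 and 8.84 at 6H and 6.17, 5.92 and 6.81 at TR. Its close relative WOX12 rose too, from 5.77 to 7.76, with a margin of 0.91, whereas the embryo gene WOX2 fell from 10.17 to 5.95.

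One family, picked out after its values were known, gave several loci. CRF1, CRF2 and CRF3, cytokinin response factors of the ERF class, met the rule with margins of 1.24, 1.69 and 1.3. CRF2 read 6.28, 6.28 and 6.38 at DS, 8.87, 8.78 and 9.06 at 6H and 7.20, 7.33 and 7.12 at TR. Among the 8 other measured CRF genes, CRF5 (1.04) and CRF10 (1.76) rose at least 2-fold from DS to 6H, and CRF7 (-2.59) and CRF8 (-1.17) fell. Under each of the 3 other scalings 1 of the 8 rose and 2 fell. MAF4 and MAF5, neighbouring MADS-box genes related to the flowering repressor FLC, also met the rule, with 1.22 and 1.29. FLC itself read 7.91 at DS, 7.55 at 6H and 5.59 at TR in mean.

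GRF5 (margin 1.52), a growth-regulating factor of young leaves, read 7.47, 7.04 and 7.45 at DS, 9.39, 9.23 and 9.55 at 6H and 7.94, 7.77 and 7.87 at TR, and was down to 4.34 at OC in mean. The remaining factors were ESE3 (1.80), an ERF factor, NF-YA6 (1.53), a subunit of the CCAAT-binding complex, the bZIP factor TGA9 (1.3), the bHLH factor BPEp (1.26), ATHB54 (AT1G27050, 1.23), a homeobox gene, and BOP2 (1.20), a cofactor with a role at leaf and floral organ boundaries. ESE3 was not among those that fell from TR to OC, at 7.28 at DS, 9.42 at 6H, 5.99 at RP and 7.61 at GC in mean.

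Enzymes and proteins of the cell wall included EXPA10, an alpha-expansin, a class that loosens the wall. It had the highest rise from DS to 6H of the 225 loci, 6.66, with 4.56, 4.93 and 4.29 at DS, 11.23, 11.12 and 11.40 at 6H and 10.00, 10.00 and 9.91 at TR. Of 22 other alpha-expansins 7 rose at least 2-fold from DS to 6H and 1 fell, where 14.6% and 10.7% of all loci did. Under both centrings the split was 6 to 5, and at an adjusted p alone 8 rose and 10 fell, with a median change of -0.40. MAN7, an endo-beta-mannanase that opens mannan in the seed and a member of the endosperm list, read 6.07, 6.33 and 6.13 at DS, 9.30, 9.30 and 8.93 at 6H and 7.50, 7.72 and 7.62 at TR. EPR1, an extensin-like gene of the same list, read 11.86 at DS and 11.24 at 6H in mean. The 5 relatives of MAN7 did not share the pulse: MAN2 alone among them was higher at 6H than at DS in mean, and MAN2 was higher still at TR. The arabinosyltransferase RRA1 (margin 1.22) and the arabinogalactan protein AGP27 (1.11) completed the group.

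Of the 65 loci placed in a role group, 6 were grouped under organelle RNA and expression. The 122 protein-coding loci without a role group may hold more such genes. MORF4 (margin 1.60) and SLO2 (1.29) act in the editing of organelle transcripts, WTF9 (1.54) in the splicing of mitochondrial introns, REME2 (AT4G15720, 1.13) in mitochondrial editing, and mTERF15 (AT1G74120, 1.27) belongs to the mitochondrial transcription termination factor family, while HCF243 (1.19) is a chloroplast protein. WTF9 read 4.64, 4.44 and 4.30 at DS, 6.68, 6.69 and 6.57 at 6H and 5.20, 4.99 and 5.12 at TR. The group's median then fell to 3.68 at OC, and 4 of the 6 fell at least 2-fold between TR and OC, a share near the 55.6% of the 225 loci (15% of all loci). Of 6 genes for RNA in the nucleus and cytoplasm 4 did so as well, and the group includes the splicing factor SR34b (1.5), the tRNA methyltransferase subunit TRM11 (1.43), the ribosome-recycling factor ABCE1 (1.41), the RNase P subunit EMB1687 (1.32) and the RNA silencing protein SGS3 (1.15).

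Signalling proteins were represented by HK1 (margin 1.63), a histidine kinase that senses osmotic stress, the receptor-like kinases CRK28 (1.3) and HLECRK (1.3), the phosphatase DSPTP1 (1.22) and the receptor-like proteins RLP14 (1.15) and RLP26 (1.11). HK1 read 6.51, 6.47 and 6.40 at DS, 7.94, 8.22 and 8.10 at 6H and 5.66, 5.55 and 5.57 at TR. HLECRK read 3.60, 3.98 and 3.47 at DS, 8.97, 9.09 and 9.26 at 6H and 7.40, 7.26 and 7.85 at TR, and unlike HK1 it stayed high to the end, at 7.81 at OC. The ubiquitin ligase ARI15 (1.7), the rhomboid-like RBL14 (1.25), the DNA repair gene GMI1 (1.18), TRFL3 (1.18), the asparaginase ASPGB1 (1.11), SUE4 (1.62), HSD2 (1.18), the mitochondrial import subunit TIM23-3 (1.24), the purine permease family member PUP11 (1.15), the mitochondrial phosphate carrier PHT3;3 (1.14) and the epidermal patterning peptide CHAL (1.28) were the other named members of small groups. A role group held 65 of the 225 loci, all 225 were found in the reference table and 74 had a symbol of their own there.

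The rule holds every other stage under 6H and sets no order among them, but each stage entered it through the highest of the other 6 means. The counts below therefore describe the 225 loci and are not independent of how they were chosen. The 3 comparisons made (TR with DS, OC with TR and OC with DS) share arrays with each other. Between TR and OC, 125 of the 225 loci (55.6%) fell at least 2-fold and none rose, where 15% of all loci fell and 15.7% rose. By unadjusted p under 0.05, 173 fell and 4 rose, and of those none rose 2-fold. At an adjusted p alone 170 fell and 3 rose (background 31.5% and 28.3%), and limma's test against a log2 change of 0.5 found 129 that fell and 1 that rose. The median change was -1.11, against 0.00 over all loci. Under the 3 other scalings used below, 139, 132 and 133 loci fell and none rose. Loci that were highest at 6H by less than 1.1 went the same way with a smaller share. Of 4502 such loci 43.6% fell and 0.42% rose, with a median change of -0.88.

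The falls were unevenly spread over the groups above. They took in 15 of 17 snoRNA loci, 11 of 14 lncRNA and ncRNA loci and 10 of 14 transcription factors, but 2 of 11 hormone genes, 1 of 7 kinases, phosphatases and receptors, and none of 4 genes of metal and metabolism, 3 of proteolysis and ubiquitin and 2 of secreted peptides and defence. These differences between groups were not tested. Role groups held 65 of the 225 loci, so the counts are not shares of whole gene classes. Of the 122 protein-coding loci without a role group, 70 fell. Among those with the largest fall between TR and OC, MIR775 fell by 3.85 ± 0.18 (SE, adjusted p = 2.04e-13), AT1G28650 by 3.58 ± 0.25 (1.10e-10), GRF5 by 3.53 ± 0.16 (2.28e-13) and NTL8 by 3.23 ± 0.18 (3.11e-12). AT3G25014 at -0.99 (adjusted p = 0.000101) and AT1G31900 at -0.98 (0.0042) were the largest changes that missed the 2-fold threshold. In stage means 191 of the 225 loci (84.9%) fell from TR to RP and again from RP to RH, against 32.8% of all loci.

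Between DS and TR, 40 loci rose at least 2-fold and 3 fell, where 19.4% of all loci rose and 16% fell. The share that rose was near the background, and the share that fell (1.33%) was under it. At an adjusted p alone 76 rose and 23 fell (background 31.3% and 40%). This split depended on how the arrays were scaled: it was 34 to 8 after a further quantile normalization, 29 to 15 with arrays centred on their median and 18 to 40 with arrays centred on reference genes, and the median change of all loci moved from -0.21 to -0.08, -0.60 and -1.02 under these settings. The largest rises were those of EXPA10 (5.38 ± 0.18 SE, adjusted p = 1.25e-15), HLECRK (3.82 ± 0.16, 4.86e-14), MIR775 (3.71 ± 0.18, 2.06e-13) and GA3OX1 (3.51 ± 0.18, 5.80e-13). The 3 that fell were AT5G10120 by 2.14 ± 0.16 (2.63e-10), GA20OX3 by 2.06 ± 0.18 (3.63e-09) and the snoRNA AT1G03506 by 1.89 ± 0.28 (4.42e-06). AT5G01175 at 0.98 and CHAL at 0.97 were the largest changes under the 2-fold threshold. Of the 40 that rose, 25 fell again by at least 2-fold between TR and OC.

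Over the whole span from DS to OC, 91 loci (40.4%) fell at least 2-fold and 15 rose, where 21.6% of all loci fell and 23.1% rose, and 184 of the 225 had a lower mean at OC than at DS. At an adjusted p alone 138 fell and 24 rose (background 42.4% and 33.2%). The split of 15 to 91 became 12 to 123, 8 to 133 and 7 to 180 under the same 3 scalings. The largest falls were those of AT5G10120 (-4.10 ± 0.16 SE, adjusted p = 7.15e-15), CRF1 (-3.78 ± 0.15, 9.01e-15), U60.1F (-3.48 ± 0.21, 5.02e-12) and AT3G58060 (-3.21 ± 0.19, 4.98e-12). HLECRK (4.12 ± 0.16, 8.41e-15), GA3OX1 (3.57 ± 0.18, 2.89e-13), ASPGB1 (2.40 ± 0.21, 2.29e-09) and EXPA10 (2.39 ± 0.18, 1.27e-10) rose most. AT2G34240 and REME2 (AT4G15720), both at -0.98, were just short of 2-fold. Limma's F test over the 6 stages other than 6H, with stage means that spanned at least 1 log2 unit, called 161 of the 225 loci (71.6%) and 61.9% of all loci.

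**Figure D5:**
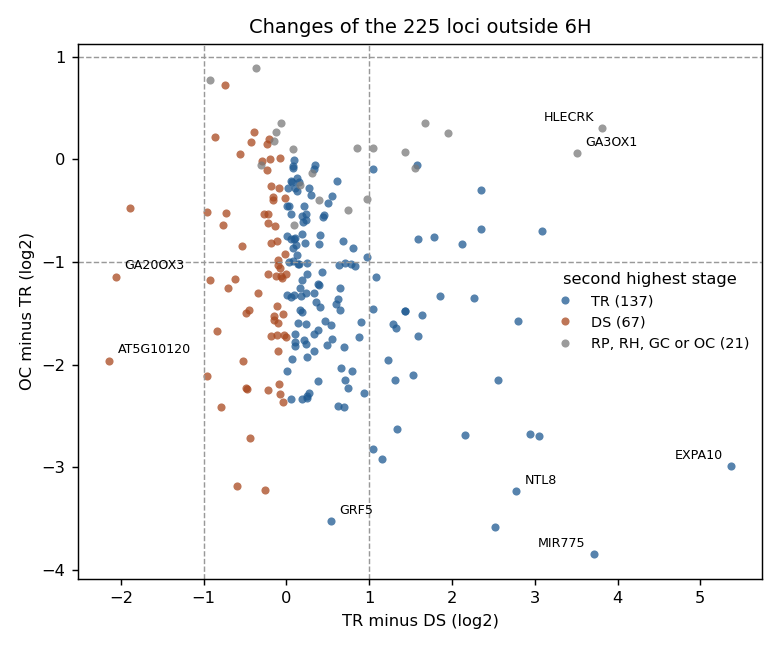
Log2 change from DS to TR (horizontal) against that from TR to OC (vertical) for each of the 225 loci, coloured by the second highest stage; dashed lines mark 2-fold changes, and both axes share the TR arrays. No point lies above the upper dashed line, 125 loci fell by at least 2-fold on the vertical axis with an adjusted p under 0.05, and most points lie between -1 and 1 on the horizontal axis.

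In gene order along the chromosomes, 23 of the 225 loci stood next to another of them, in 12 neighbouring pairs. Beside the snoRNA run and MAF4 with MAF5, these were EXPA10 with AT1G26762, the snoRNA SNOR95 with AT1G26235, MIR844 with AT2G23348, AT1G15825 with AT1G15830, AT1G20690 with AT1G20691, AT2G05914 with AT2G05915, AT3G01311 with AT3G01313, AT4G03292 with AT4G03295, and AT5G57567 with AT5G57570. Of the measured loci next to one of the 225, 30.9% were highest at 6H, against 17.2% of the neighbours of all loci. The spans of 67 loci (29.8%) overlapped another measured locus, against 24.9% of all loci. GA3OX4, for instance, overlaps the lncRNA AT1G80325, whose margin was 0.61. The sources used here do not say whether the probes tell strands apart, so the signals of overlapping loci are uncertain.

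The dry-seed arrays bear on the margin of the 67 loci for which DS was second highest. DS replicate 1 was the highest of the 3 DS arrays for 103 of the 225 loci, replicate 2 for 63 and replicate 3 for 59, and over all loci those shares were 32.1%, 38.8% and 29.0%. The part of these arrays in the margins was not tested beyond leaving each out, and 208 of the 225 loci still met the rule without DS replicate 2. All 25 loci with the largest margins met the rule under each of the 3 other scalings, 126 of the 225 met it under all 3, and 54 under none of them. MIR779, MIR403, SGS3, RRA1 and TIM23-3 are among those 54, and GA20OX3, CRF1, MAF4 and MAF5 met it in 1 of the 3.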

How the data were processed

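The authors deposited 1 table of log2 values for 35986 probe sets on 21 arrays. Per the submitters' processing notes these came from RMA. That method subtracts background, normalizes the arrays to each other and reports 1 log2 value per probe set. A change is therefore relative to the other transcripts. The deposited values still differed in distribution between stages: the median over all loci was 4.76 at DS and 5.30 at OC. The version of RMA, the array platform and the genome build are not given in the sources used here.

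Here 215 probe sets were dropped because their values on the 21 arrays were identical to those of a probe set of another locus. The others were averaged per locus (27789 loci), and names came from the RefSeq table for TAIR10.1. One limma model (limma 3.58.1, R 4.3.3, 14 residual degrees of freedom) with a mean per stage gave 2-sided tests adjusted by Benjamini-Hochberg over all loci, called at an adjusted p under 0.05 and at least 2-fold. The scripts were checked on simulated data. Python 3.11.15 with pandas 2.3.3 made the counts. The loci, gene lists, families and role groups were chosen with earlier results of these data known.

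Named were the 25 largest margins, list genes that met the rule, up to 5 per role group, 3 loci on either side of the threshold, the 4 largest rises and falls per comparison with 2 that missed, large changes in the lists, and neighbouring pairs; further members and family relatives were added after their values were seen. Alternatives were other scalings, probe set choices, thresholds, margins, variance settings, array weights and each array left out. Replicate numbers did not pair the arrays: over 63 same-numbered pairs the correlation of deviations from stage means ran from -0.33 to 0.22, with a median of 0.01.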

Additional observations from a re-analysis of the deposited data

How the results depend on the processing

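The number of loci that met the rule was 225 and moved to 169 after a further quantile normalization (156 shared), 145 with arrays centred on their median (141 shared), 323 with arrays centred on reference genes (141 shared), 422 at a margin of 0.9 and 113 at a margin of 1.3. Loci that fell from DS to TR (3) became 8, 15 and 40 under the 3 scalings, 5 with array weights, 23 with no fold threshold and 7 with limma's test against 0.5, and those that rose (40) became 18 with reference centring, 76 with no fold threshold and 26 at a log2 change of 1.5. From TR to OC the number that rose (0) became 3 with no fold threshold and 1 with the test against 0.5, and the number that fell (125) became 76 at 1.5. From DS to OC the number that rose (15) became 8 with median and 7 with reference centring, 24 with no fold threshold and 9 at 1.5, and the number that fell (91) became 180, 138 and 52 with reference centring, no fold threshold and 1.5. The cause was not tested.

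With each of the 21 arrays left out in turn, 211 to 245 loci met the rule; 39 to 42 rose and 3 to 7 fell from DS to TR, 0 to 1 rose and 118 to 125 fell from TR to OC, 14 to 17 rose and 84 to 99 fell from DS to OC, and 157 to 170 passed the F test. The 7 came without DS replicate 2; 5 fell without DS replicate 3, TR replicate 1 or TR replicate 2, and the 1 rise came without TR replicate 3. Leaving out DS replicate 2 and OC replicate 2 together, chosen after seeing the data, gave 211 loci, with 7 that fell from DS to TR. A fit with the replicate number as a block gave the same counts (40 and 3, 0 and 125, 15 and 91, 161), though the numbers do not pair the arrays: 9 of 21 correlated best with their own number. No change of the loci named for these comparisons reversed under the alternatives run. Motif shares in promoters were not run, since promoter sequences were not used here. The 3 arrays a stage and the lower end of the scale limit loci near 3.47.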
